A study of Homo sapiens with 4 samples.

Results

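Chemokines are small secreted proteins that draw leukocytes along a concentration gradient. The 10 chemokine genes described here are those that the 786-0 carcinoma cells could be making themselves: CXCL1, CXCL2, CXCL3, CXCL5, IL8 (now named CXCL8), CXCL16, CXCL12, CCL2, CCL20 and CX3CL1. They were selected by name, as the rows of the deposited gene table whose gene name equals one of these symbols, and each symbol matched 1 of the 57659 genes listed. 786-0 is an established human line of clear cell renal cell carcinoma. It was transfected with control siRNA (2 libraries, Control 1 and Control 2) or with siRNA against SLFN5, an interferon-regulated gene of the Schlafen family (2 libraries, SLFN5 siRNA 1 and SLFN5 siRNA 2), and the poly(A) RNA was sequenced. All 4 libraries thus come from 1 cell line that had been through a transfection, and no untransfected library was analysed. No label used here gives the siRNA sequence, the time after transfection, or whether replicate libraries were made from separate cultures. The design text speaks of triplicates, and 2 libraries a group were analysed here. A p-value therefore rests on the spread between these libraries, which may be technical. For each gene that spread is drawn toward the trend over genes of similar level (9.6 prior against 2 residual degrees of freedom). A standard error thus reflects other genes more than the gene's own replicates.

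CXC chemokines with a Glu-Leu-Arg motif before the first cysteines (CXCL1, CXCL2, CXCL3, CXCL5 and IL8) act on the receptors CXCR1 and CXCR2 and recruit neutrophils, and they also promote vessel growth. Their genes lie in a cluster on chromosome 4 and are classic targets of NF-kB, which binds kB sites close to their start. CCL2 attracts monocytes through CCR2, CCL20 attracts CCR6-bearing T cells and dendritic cells, CXCL12 acts on CXCR4 and on the scavenging receptor ACKR3, and CXCL16 and CX3CL1 are made as membrane-bound proteins that the proteases ADAM10 and ADAM17 can release.

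The DNA just upstream of 6 of these genes is shown because most of the family shares a kB match there. The sequences are the 120 bases before the RefSeq start (GRCh38.p14, each written 5′ to 3′ on the gene's own strand). Capitals mark matches to the kB motif GGNNTTTCC, searched on both strands.

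CXCL1: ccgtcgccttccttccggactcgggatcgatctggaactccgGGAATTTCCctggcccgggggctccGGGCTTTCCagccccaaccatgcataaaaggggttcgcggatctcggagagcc
CXCL2: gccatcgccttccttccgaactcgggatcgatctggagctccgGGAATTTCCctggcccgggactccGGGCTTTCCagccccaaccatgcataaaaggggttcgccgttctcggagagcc
CXCL3: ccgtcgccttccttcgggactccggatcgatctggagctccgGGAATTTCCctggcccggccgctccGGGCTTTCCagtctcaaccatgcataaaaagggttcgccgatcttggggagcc
CXCL5: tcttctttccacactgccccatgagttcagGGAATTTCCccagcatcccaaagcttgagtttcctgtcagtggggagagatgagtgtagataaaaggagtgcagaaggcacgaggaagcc
IL8: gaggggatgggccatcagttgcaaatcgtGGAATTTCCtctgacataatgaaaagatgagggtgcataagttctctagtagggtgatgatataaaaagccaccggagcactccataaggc
CCL20: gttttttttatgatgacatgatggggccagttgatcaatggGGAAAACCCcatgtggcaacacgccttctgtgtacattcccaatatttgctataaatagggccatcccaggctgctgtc

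The windows lie at chr4:73869273-73869392 (plus strand) for CXCL1, chr4:74099196-74099315 (minus strand) for CXCL2, chr4:74038690-74038809 (minus) for CXCL3, chr4:73998678-73998797 (minus) for CXCL5, chr4:73740449-73740568 (plus) for IL8 and chr2:227813722-227813841 (plus) for CCL20. CXCL1, CXCL2 and CXCL3, which code for the closely related GRO proteins, carry 2 matches each, the first of which begins 78, 77 and 78 bases before the start (positions -78, -77 and -78) and the second at -53 in each. The windows of CXCL1 and CXCL3 are the same at 109 of 120 positions. The letters GGAATTTCC stand in all 5 neutrophil chemokine windows, at -90 in CXCL5 and -91 in IL8, while the CCL20 match is GGAAAACCC at -79, on the other strand. RefSeq promoters of 300 bases (250 before and 50 after the start) were at hand for 7 of the 10 genes. Of these, 6 held a kB match and CXCL12 held 0, against 6.26% of 35116 promoters of the same length. The AP-1 motif TGANTCA, also searched on both strands, was found in 1 of the 7, that of IL8 (at -137, upstream of the window shown), against 7.71% of all promoters. These matches are descriptions of the letters and not evidence of binding.

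The deposited values are read counts per gene that the authors' tool brought to one common library size. They are called equalised counts, and dividing them by the length of the longest protein-coding transcript gives a level per kilobase for comparison between genes. The longest transcript need not be the one expressed, so an order of genes by this level depends on that choice. The libraries held 13187517 to 31905328 recovered reads, with Control 1 the deepest. Values of the 4 libraries are given in the order Control 1, Control 2, SLFN5 siRNA 1, SLFN5 siRNA 2. The siRNA target itself, SLFN5 (ENSG00000166750), had 420, 353, 167 and 118 equalised counts, so both knockdown libraries were below both controls (log2 change -1.45, SE 0.21, limma adjusted p = 0.000524). The renal lineage factor PAX8 and the keratin KRT8 were at 3392 to 8040 equalised counts in all libraries, while the hypoxia marker CA9 had 4 reads over the 4 libraries. Of 10 leukocyte markers 4 had 0 reads. The pan-leukocyte gene PTPRC had 1 read, LYZ 1, CD14 19, ITGAM 64 and CSF1R 109 over the 4 libraries, and ITGAM went from 11.2 and 2.21 equalised counts to 30.6 and 17.8 (log2 change 1.96, limma adjusted p = 0.0559). The summed level of the leukocyte list was 228 and 243 equalised counts in the controls and 616 and 643 after SLFN5 siRNA, most of it CD68, a lysosomal gene that other cells also express (188, 204, 555 and 599). The part of these markers in the results below was not tested. The fibroblast list summed to 187 to 323 and the endothelial list to 14.5 to 47.2 equalised counts, with reads over all libraries from 1 (DCN and FAP) to 637 (COL14A1) in the first and from 0 (PECAM1) to 57 (ESAM) in the second. ESAM, at 4.30, 8.26, 14.4 and 33.1 equalised counts, had a log2 change of 1.71 (limma adjusted p = 0.0595). It reached the filter value of 10 in the SLFN5 siRNA libraries alone, so its rise is in part set by that selection. Among the called markers, the epithelial genes EPCAM and CUBN had log2 changes of 1.57 and 1.88, VIM of -0.46, PDGFRB of -1.82 and COL14A1 of 1.09. Of these EPCAM passed whichever library was left out. VIM passed in none of those fits, and CUBN, COL14A1 and PDGFRB were each lost in at least 1. Over those fits the log2 change ran from 1.38 to 2.38 for CUBN and from 0.60 to 1.58 for COL14A1. For PDGFRB it ran from -2.39 to -1.26.

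IL8 and CXCL5 were the dominant chemokine transcripts of the line. Per kilobase, IL8 averaged 839 equalised counts in the controls and 609 after SLFN5 siRNA, and CXCL5 averaged 532 and 630. IL8 was the higher of the pair in both controls (556 against 455, and 1121 against 609) and in SLFN5 siRNA 2 (714 against 694), and CXCL5 was the higher in SLFN5 siRNA 1 (565 against 505), so their ranges overlapped. Together they made up 69.8% to 82.9% of the equalised counts of the 10 genes. CCL2 followed at 246 to 322 per kilobase, below every value of IL8 and CXCL5. The ranges of CXCL2 (80.6 to 129) and CXCL1 (74.7 to 126) overlapped nearly throughout. CX3CL1 came next (31.3 to 56.8). Its length was taken as 5796 bases, and its undivided equalised counts (181 to 329) were above those of CXCL1 and CXCL2 in every library. The control values of CCL20 (28.0 and 32.1) reached into the ranges of CX3CL1 above and of CXCL3 below (16.4 to 30.1), and its knockdown values (6.08 and 2.89) lay about the range of CXCL16 (3.15 to 6.51). CXCL16 and CXCL12 (0.341 to 1.35) were at the bottom, and over the 4 libraries CXCL12 had 13 reads in all.

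**Figure D1:**
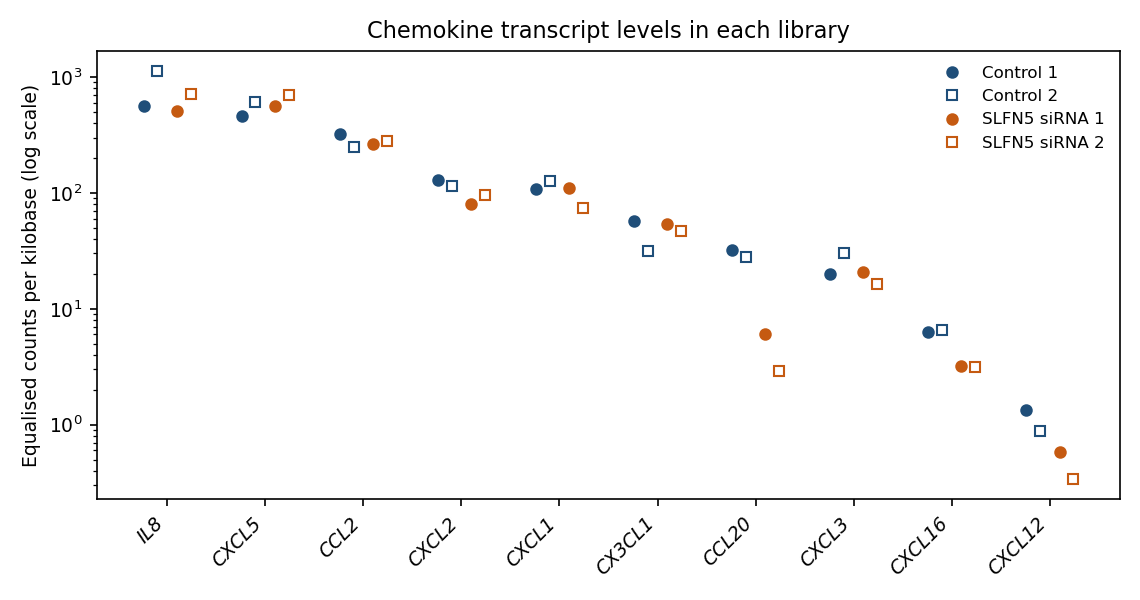
Level of each chemokine gene in each library, in equalised counts per kilobase of the longest protein-coding transcript (log axis), with genes ordered by their control mean. Controls are blue and SLFN5 siRNA libraries orange, with filled circles for library 1 and open squares for library 2. IL8 and CXCL5 are the highest in every library, and CCL20 falls from 28.0 and 32.1 in the controls to 2.89 and 6.08 after SLFN5 siRNA.

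The question was which of these transcripts differ when SLFN5 is reduced. Of the 10 genes, 9 passed the filter on low values (at least 10 equalised counts in at least 2 libraries) and CXCL12 did not. Of the 9 tested, 1 was lower (CCL20), 0 were higher and 8 did not pass an adjusted p of 0.05 (limma, Benjamini-Hochberg over all genes tested). Among all 15640 tested genes 29.6% passed, 13.3% higher and 16.3% lower. An unadjusted p under 0.05 was reached by 1 of the 9 chemokines, against 40.6% of all tested genes. The median log2 change of the 9 was -0.39, and that of all tested genes was -0.03. CCL20 and CXCL16 passed the filter through the controls alone, where they were higher, so the counts and the median do not describe an unselected family. The groups did not overlap for 3 of the 9 genes, namely CXCL2, CXCL16 and CCL20, all lower after SLFN5 siRNA, whereas 64.6% of all tested genes had groups that did not overlap. A chemokine that did not pass is not shown to be unchanged. These are bulk samples, so fewer cells making a transcript and less of it per cell cannot be told apart.

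**Figure D2:**
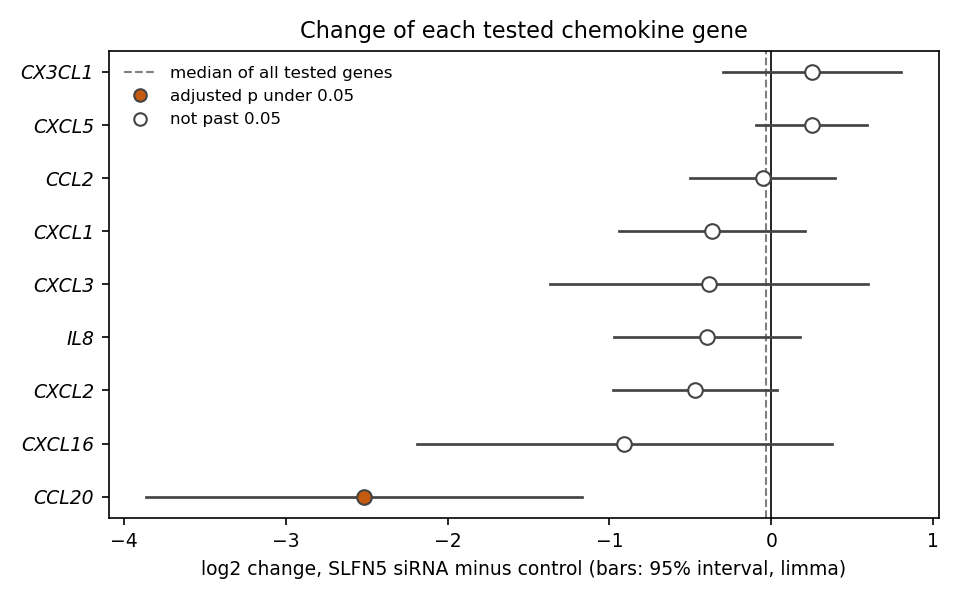
Log2 change of the 9 tested chemokine genes (SLFN5 siRNA minus control, points) with the 95% interval of the limma fit (bars). A filled point marks an adjusted p under 0.05. The interval of CCL20 runs from -3.86 to -1.17, and those of the other 8 genes include 0. The dashed line is the median of all tested genes, at -0.03.

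CCL20 (ENSG00000115009), the chemokine ligand of CCR6, had the largest change of the 9. The controls held 27.0 and 23.5 equalised counts and the knockdown libraries 5.10 and 2.43. Both knockdown libraries were below both controls. The mean went from 25.2 ± 2.46 to 3.76 ± 1.89 (SD, n = 2), a log2 change of -2.52 (SE 0.61, limma adjusted p = 0.00972), or 0.149 of the control mean. Behind these values stood 46, 16, 5 and 2 reads. Summed per group and scaled to the libraries' sizes, that is a ratio of 0.148 with an exact interval at 95% of 0.0571 to 0.323, which covers counting error only. The call was lost when either control was left out, with a log2 change of -2.42 and an adjusted p of 0.0788 without Control 1 and of -2.61 and 0.0595 without Control 2. It was kept without SLFN5 siRNA 1 (adjusted p = 0.00804) or SLFN5 siRNA 2 (0.0244). The log2 change ran from -2.93 to -1.80 over the 13 alternative settings that tested the gene. With values this far apart its sign could not turn, so the shared direction adds no support. CCL20 met the filter on low values through the controls alone, so its drop is in part set by that selection.

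Genes with a profile like that of CCL20 over the 4 libraries were sought by Euclidean distance between log2 values after subtraction of the control mean. The nearest were CCNA1, coding for cyclin A1 (distance 0.134), C1orf51 (0.331) and the small nuclear RNA gene RNU6-45 (0.376), with log2 changes of -2.54, -2.39 and -2.30. With 4 libraries, such a likeness says little beyond a similar drop in both knockdown libraries. CCL20 and RNU6-45 (mean 2.15 equalised counts after SLFN5 siRNA) met the filter on low values through the controls alone. Their drop, and so their likeness, is in part set by that selection. RNU6-45, itself at 13.8 mean equalised counts in the controls, was not past the threshold without Control 1 (adjusted p = 0.181), Control 2 (0.243) or SLFN5 siRNA 2 (0.0837).

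IL8 (ENSG00000169429), a potent neutrophil attractant, varied more between the controls than between the groups. The controls held 948 and 1912 equalised counts and the knockdown libraries 861 and 1217. Control 2 was highest, and SLFN5 siRNA 2 lay above Control 1, so the groups overlapped. The log2 change was -0.40 (SE 0.26, 95% interval -0.97 to 0.18, limma adjusted p = 0.290). The 2 controls differed by 1.01 on the log2 scale, more than 95.3% of tested genes did. The value moved with the control left out. Without Control 1 the log2 change was -0.90 (adjusted p = 5.66e-05), and without Control 2 it was 0.11 (adjusted p = 0.776).

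CXCL5 (ENSG00000163735) leaned the other way. Its equalised counts were 1156 and 1545 with control siRNA, against 1434 and 1761 with SLFN5 reduced. SLFN5 siRNA 2 was highest and Control 1 lowest, with the middle values crossing. The mean was 1351 ± 276 in the controls and 1598 ± 231 after SLFN5 siRNA (SD, n = 2), a log2 change of 0.25 (SE 0.16, 95% interval -0.09 to 0.59, limma adjusted p = 0.263). In IL8 and CXCL5 alike, the second library of each group was the higher one. Between same-numbered libraries, SLFN5 siRNA over control was 0.908 and 0.636 for IL8 and 1.24 and 1.14 for CXCL5. Whether these libraries were paired is not stated.

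The GRO genes were all lower on average, and none passed. CXCL2 (ENSG00000081041) had 157 and 140 equalised counts in the controls and 98.2 and 116 in the knockdown libraries, with both knockdown values below both controls (log2 change -0.47, SE 0.23, 95% interval -0.98 to 0.04, limma adjusted p = 0.153). CXCL1 (ENSG00000163739) stood at 118, 138, 120 and 81.9 in the same order. There SLFN5 siRNA 1 lay between the controls and SLFN5 siRNA 2 below them, and the log2 change of -0.36 (SE 0.26, adjusted p = 0.332) shrank to -0.09 without SLFN5 siRNA 2. CXCL3 (ENSG00000163734), the least abundant, stood at 21.3, 32.4, 22.5 and 17.6, with overlapping groups (log2 change -0.39, SE 0.45, adjusted p = 0.564). The longest protein-coding transcripts of CXCL1, CXCL2 and CXCL3 share 5.73%, 9.24% and 5.26% of their 50-base stretches with another gene of this trio (GENCODE v29), so a small part of their reads could have been assigned to a relative.

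CCL2 (ENSG00000108691), the monocyte attractant, stayed within its own spread. The controls had 239 and 182 equalised counts, the knockdown libraries 195 and 207, and both knockdown values lay between the controls. The log2 change was -0.05 (SE 0.21, 95% interval -0.50 to 0.40, limma adjusted p = 0.876). Its sign followed the scaling, being 0.08 when library totals alone were used.

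Of the membrane-bound chemokines, CX3CL1 (ENSG00000006210), or fractalkine, had 329 and 181 equalised counts in the controls and 312 and 271 in the knockdown libraries. Both knockdown values lay between the controls, which differed from each other more than 93.3% of tested genes did (log2 change 0.25, SE 0.25, 95% interval -0.30 to 0.80, limma adjusted p = 0.5; -0.18 without Control 2 and 0.68 without Control 1). CXCL16 (ENSG00000161921), which is also a scavenger receptor for oxidised lipids, stood at 13.9 and 14.5 in the controls and at 7.16 and 6.99 after SLFN5 siRNA. Both knockdown values were close to each other and below both controls, at 0.499 of the control mean. These values rest on 24, 10, 7 and 6 reads, and the gene did not pass (log2 change -0.91, SE 0.59, 95% interval -2.19 to 0.37, limma adjusted p = 0.275). The ratio of its summed reads was 0.501, with an exact interval at 95% of 0.243 to 0.974 for counting error only. CXCL16 met the filter on low values through the controls alone, so this ratio is in part set by that selection. It passed in 1 of 13 alternative settings, the fit without a variance trend (adjusted p = 0.0432).

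CXCL12 (ENSG00000107562), the stromal ligand of CXCR4, was barely detected. It had 8, 2, 2 and 1 reads, or 4.76, 3.11, 2.04 and 1.20 equalised counts, and was not tested. The ratio of the summed reads, SLFN5 siRNA to control, was 0.393 with an exact counting interval of 0.0695 to 1.53, so no difference was detectable at this depth.

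**Figure D3:**
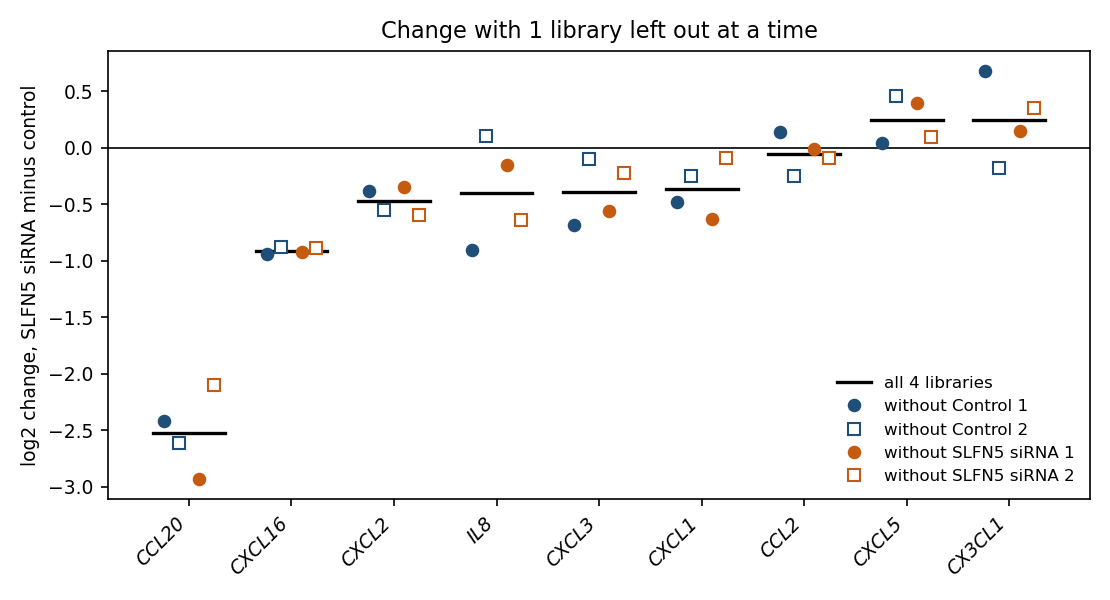
Log2 change of each tested chemokine gene (SLFN5 siRNA minus control) in the fit on all 4 libraries (black line) and with 1 library left out at a time (symbols). CCL20 lies between -2.93 and -2.10 and CXCL16 between -0.94 and -0.88 whichever library is left out, whereas IL8 runs from -0.90 to 0.11 and CX3CL1 from -0.18 to 0.68.

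The receptors for these ligands were mostly missing from the cells. CXCR1, CXCR6, CCR2 and CX3CR1 had 0 reads in all 4 libraries, CXCR2 had 1 and CXCR4 had 3. Of 23 chemokine receptor genes 4 were tested, 1 of which was higher and 0 lower, against 13.3% and 16.3% of all tested genes. That gene was ACKR3, listed as CXCR7, which binds and clears CXCL12. It went from 83.6 and 101 equalised counts in the controls to 195 and 198, so both knockdown values were above both controls (log2 change 1.09, SE 0.23, limma adjusted p = 0.00388), and it passed in all 14 alternative settings. CCR6, the receptor of CCL20, stood at 17.4, 10.8, 5.11 and 3.55 equalised counts. It did not pass (log2 change -1.48, SE 0.66, limma adjusted p = 0.117). Like CCL20, it met the filter on low values through the controls alone, so its lower knockdown values are in part set by that selection.

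Of 29 other chemokine genes 28 were matched in the table, 15 of these had 0 reads and 4 were tested. Of those 4, 0 passed, against 29.6% of all tested genes. The epithelial chemokine CCL28 came nearest, at 194, 152, 307 and 228 equalised counts (log2 change 0.62, SE 0.22, limma adjusted p = 0.0513). It is named because of that value. In 7 of 14 alternative settings 1 or 2 of these other chemokines were higher, among them both scalings by totals and the fits without Control 1 or SLFN5 siRNA 2, and 0 were lower in any. Of the other genes of the chromosome 4 cluster, CXCL6 had 4 reads, PPBP had 2 and PF4 had 0.

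Genes that release, bind or trim chemokines are the next list. The lists were chosen with earlier results of these data known. Of 12 tested genes, 7 were higher and 2 lower, against 13.3% and 16.3% of all tested genes. Their median log2 change was 0.63. Without a variance trend the list had 2 higher and 0 lower genes, in a setting where 1182 of 15640 tested genes passed. The lower genes of the main fit were the sheddases of CX3CL1 and CXCL16. ADAM17 fell by 0.59 on the log2 scale (SE 0.11, limma adjusted p = 0.00258) and ADAM10 by 0.37 (adjusted p = 0.0205). The ADAM10 call was lost without Control 1 (adjusted p = 0.145), Control 2 (0.0931) or SLFN5 siRNA 1 (0.0632) and with either scaling by totals (0.135 and 0.137), and without a variance trend neither sheddase passed (0.136 for ADAM10 and 0.0693 for ADAM17). The higher genes included the collagenase MMP1 (log2 change 1.89), the gelatinase MMP2 (0.95), which can clip chemokine ends, and the heparan sulfate carrier SDC1 (0.94), each past the threshold whichever library was left out, and MMP2 was not past it without a variance trend (0.109).

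Cytokines and receptors that induce chemokine transcription went both ways (median log2 change -0.00). Of 12 tested, 2 were higher and 4 lower, against 13.3% and 16.3% of all tested genes. IL6 fell by 1.11 on the log2 scale, from 476.5 and 338 equalised counts in the controls to 221 and 156, and the interleukin-1 receptor partner IL1RAP by 1.11 and LIF by 1.04. The growth factor TGFA rose by 2.85 and the receptor chain IL17RC by 1.05. Each of these 5 passed whichever library was left out, but without a variance trend IL6 (limma adjusted p = 0.0787), IL1RAP (0.0579) and IL17RC (0.0869) did not. IL1B, TNF and IL17A were among 6 genes of the list with 0 reads, and IL1A had 10 reads.

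The NF-kB list holds the subunits of the factor with its kinases, inhibitors and some well-known target genes. Of 20 tested genes 9 were lower and 2 higher (median log2 change -0.28), against 16.3% and 13.3% of all tested genes. BIRC3, an inhibitor of apoptosis, was among the lower genes (log2 change -1.43), as were the kinase CHUK (-0.84) and the coactivator BCL3 (-0.83), while SOD2 and the inhibitor NFKBIB rose by 1.41 and 1.39. With either scaling by totals the list had 8 lower and 4 higher genes. Without a variance trend it had 2 lower and 2 higher genes. In that setting 1182 of all 15640 tested genes passed, against 4630 in the main fit. BCL3 did not pass without Control 1 (adjusted p = 0.134), Control 2 (0.0680) or SLFN5 siRNA 2 (0.0837). Among the subunits, NFKB1 went from 2195 and 2236 equalised counts in the controls to 1547 and 1342, and RELA from 932 and 849 to 670 and 538 (limma adjusted p = 0.00263 and 0.0141). The other subunits did not pass, with log2 changes of -0.34 for RELB (limma adjusted p = 0.133), 0.26 for REL (0.396) and 0.03 for NFKB2 (0.869). The subunits were singled out after their values were seen. Of the 6 chemokines with a kB match in their promoter, all tested, 1 passed (CCL20, lower) and the 5 neutrophil chemokines did not, against 29.6% of all tested genes.

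Of 10 AP-1 and C/EBP genes, 2 were higher and 1 lower, a share near the 29.6% of all tested genes. Without a variance trend 0 passed, in a setting where 1182 of 15640 tested genes did. CEBPD and JUND had log2 changes of 0.89 and 0.84 and JUNB one of -0.40. With Control 2 left out, CEBPD had a log2 change of 0.52 (limma adjusted p = 0.153) and JUND one of 0.44 (0.124). With SLFN5 siRNA 1 left out they were again not past the threshold (0.0592 for CEBPD and 0.268 for JUND). JUNB was not past it without Control 1 (0.0782), Control 2 (0.154) or SLFN5 siRNA 2 (0.0980), nor with either scaling by totals (0.11 and 0.111).

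Of 9 genes that act on the decay of chemokine mRNAs, 5 fell and 1 rose, against 16.3% lower and 13.3% higher among all tested genes. The median log2 change of the 9 was -0.355. With library totals alone as the scaling, 1 of them was lower and 1 higher. Without a variance trend 1 was lower and 0 were higher, in a setting where 1182 of 15640 tested genes passed. The phosphatase DUSP1 fell by 1.23 on the log2 scale, under every scaling and whichever library was left out. ZFP36L2, a destabilising protein, and HNRNPD had log2 changes of -0.68 and -0.45, and ZFP36L1, a relative of ZFP36L2, one of 0.45. None of the latter 3 held in every fit that left out a library, with adjusted p up to 0.25 for ZFP36L2 (without Control 1), 0.276 for HNRNPD (without Control 2) and 0.101 for ZFP36L1 (without Control 1).

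**Figure D4:**
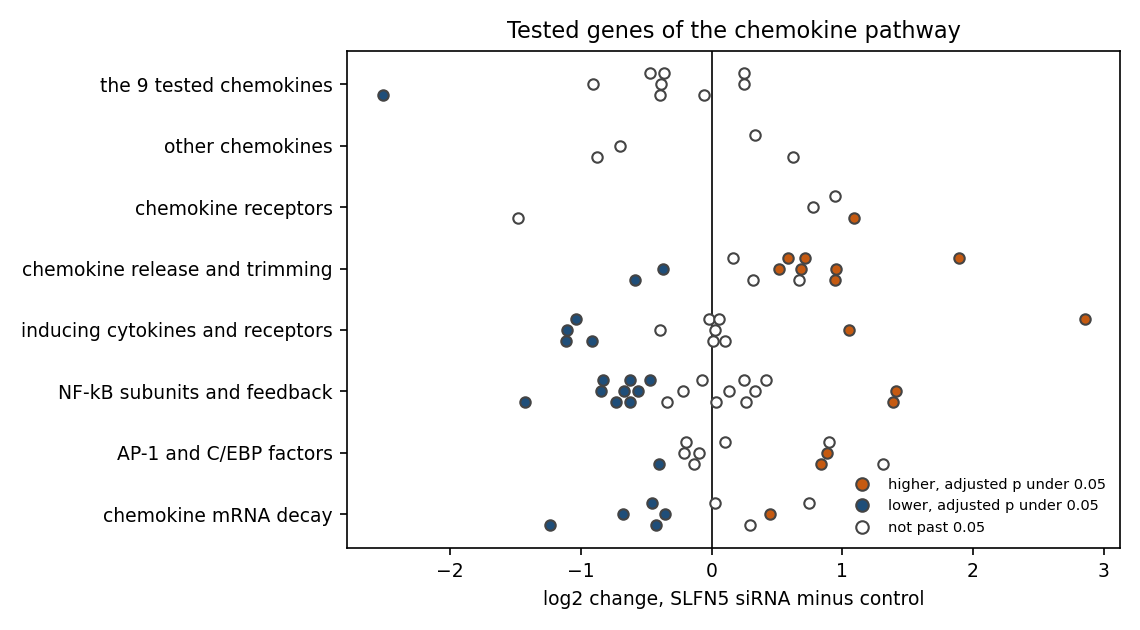
Log2 change (SLFN5 siRNA minus control) of every tested gene of the chemokine set and of the 7 pathway lists. Orange points were higher and blue points lower at an adjusted p under 0.05 (limma), and open points did not pass. From top to bottom the filled points number 1 of 9, 0 of 4, 1 of 4, 9 of 12, 6 of 12, 11 of 20, 3 of 10 and 6 of 9, and 29.6% of all tested genes passed.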

How the data were processed

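Total RNA of 4 libraries was selected for poly(A) and sequenced as single ends, per the labels' protocols. The submitters' processing notes name edgeR and hg19, and for the aligner, the counter and the annotation no source used here gives a name. Per gene, the deposited signal holds read counts that the authors equalised to one library size, most likely the pseudo-counts of edgeR. With a dispersion of 0.0162, reversing that adjustment gave whole reads for 100% of 230636 values (relative tolerance 1e-06). Recovered reads served for depth, counting intervals (95%, exact) and alternatives.

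Genes with at least 10 equalised counts in at least 2 libraries were tested with limma 3.58.1 (R 4.3.3) on log2(value + 1), group alone, intensity trend, Benjamini-Hochberg over 15640 genes, two-sided, threshold 0.05. A fold on this scale understates changes of low genes. The fit was tested on counts simulated with the dispersion of 0.0162 for all genes. It called 68% of genes set to a fold of 2 and 60.4% of those set to 0.5. At folds of 1.5 and 0.67 it called 12% and 10.2%, and 4 unchanged genes were called. Genes that vary more between libraries were not simulated. The members and lists were chosen with earlier results of these data known. Named are SLFN5, the members, their receptors and, per list, up to 3 genes called in each direction with the largest change, and the 3 genes nearest in profile to the called member. Other names are marked in the text or illustrate levels. Alternatives covered pseudocount, filter, scaling, variance trend, limma-voom, left-out libraries and a replicate block. Python 3.11.15 and SciPy 1.17.1 read promoters (RefSeq, GRCh38.p14) and transcripts (GENCODE v29).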

Additional observations from a re-analysis of the deposited data

How the results depend on the processing

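With the deposited scaling 4630 genes passed, 45.1% of them higher. Scaling by library totals alone moved the median log2 change of all tested genes by 0.123 and gave 4515 calls, 61.4% of them higher, and rescaling the deposited totals gave 61.5% higher. Without a variance trend 1182 genes passed, and 2 chemokines were lower, CCL20 and CXCL16. With a filter of at least 50 the lower count was 0, because CCL20 was no longer tested, and 1 other chemokine passed, CCL28. Leaving out 1 library gave 2934 to 4084 calls over all genes (2934 without Control 2), 0 higher chemokines and 0 to 1 lower. The lower one without Control 1 was IL8, and it was 0 without Control 2. Signs turned for CCL2 (0.07 with rescaled totals, 0.08 with library totals alone, and -0.25 to 0.14 with 1 library left out), IL8 (-0.90 to 0.11) and CX3CL1 (-0.18 to 0.68). The causes were not tested.

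The labels number the libraries 1 and 2 in each group and give same-numbered libraries a shared code, but do not say what it stands for. Deviations of same-numbered libraries correlated at 0.190 over genes. With a replicate block 6703 genes passed, and among the chemokines 2 were lower (CCL20 and IL8, adjusted p = 0.00520) and 1 was higher (CXCL5, adjusted p = 0.0336). With 2 pairs this is only a hint from the data, and no label states whether the libraries were paired. Over the 9 tested chemokines, 112 of the alternative values kept direction and side of the threshold (mostly genes that stayed uncalled), 5 changed sign, 4 were newly past it and 2 no longer past it. The looser kB motif GGNNNTNCC matched 7 of the 7 promoters, and 51.2% of all promoters.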
